A study of Mus musculus with 26 samples.

Results

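The nuclear genes for the subunits of the mitochondrial respiratory chain were followed in mammary fibroblasts and bone-marrow-derived macrophages grown alone or together. Members were chosen by symbol, as genes named for subunits of complex I (Nduf, without the Ndufaf assembly factors), complex II (Sdh), complex III (Uqcr), complex IV (Cox4 to Cox8) and the ATP synthase, complex V (Atp5). Of 12948 genes listed for fibroblasts 79 were members, and of 11822 listed for macrophages 77, all of them among the 79. The 79 members comprised 34 of complex I, 4 of complex II, 7 of complex III, 17 of complex IV and 17 of complex V, with Ndufa4 counted in complex IV, where its protein is now placed. Cox8b and Ndufa11 were listed for fibroblasts only.

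Complexes I and II pass electrons from NADH and succinate to coenzyme Q, complex III passes them on to cytochrome c, and complex IV hands them to oxygen. Complexes I, III and IV pump protons across the inner mitochondrial membrane, and the ATP synthase uses that gradient to make ATP. In macrophages the chain is best known for its reshaping during activation, when succinate oxidation and complex I become sources of signals as well as of energy.

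RNA was measured by 3' end sequencing in 26 libraries from cells of BALB/c mice aged 8 weeks, with 2 females per fibroblast replicate. Fibroblasts came from normal mammary fat pad after expansion in culture and depletion of cells carrying CD45 or EpCAM, and macrophages were grown from bone marrow in medium containing 20% L929-conditioned medium. Cells were kept in DMEM or in medium conditioned by 4T1, a mouse mammary carcinoma line (4T1 CM), and co-cultures were sorted by F4/80 and CD11b after 7 days. Whether cells grown alone were sorted, and how long they were grown, is not known here. Where these differ, they cannot be told apart from the partner cell. For fibroblasts there were 3 libraries of cells grown alone in DMEM, 2 of cells grown alone in 4T1 CM, 3 of co-cultures in DMEM and 4 of co-cultures in 4T1 CM. For macrophages there were 3 libraries from day 0, 4 of cells grown alone in 4T1 CM, 3 of co-cultures in DMEM and 4 of co-cultures in 4T1 CM. The 3 macrophage columns taken as day 0 carry a heading that names DMEM, whereas the matching sample titles name day 0. If the headings are right, the comparisons with day 0 are comparisons with mono-culture in DMEM.

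Libraries held 1945980 to 7632366 reads in fibroblasts and 1434695 to 4140985 in macrophages. All 14 fibroblast markers were detected in every fibroblast library, and all 14 macrophage markers in every macrophage library. RNA of the partner cell was also present. The summed fibroblast markers in macrophage libraries were 1352 to 10396 counts per 1000000 reads (CPM) in co-culture in 4T1 CM and 1003 to 3856 in co-culture in DMEM, against 10.7 to 80.5 in mono-culture in 4T1 CM and 25.3 to 26.0 at day 0. Replicate 3 was the highest in both co-culture groups. Markers of skeletal muscle, a tissue rich in respiratory chain, summed to 203 to 1061 CPM in fibroblast mono-cultures in DMEM and to 22.3 to 24.4 in those in 4T1 CM. In these bulk samples fewer cells of a type and less RNA per cell cannot be told apart.

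Promoters are shown for 3 members lower in co-cultured macrophages and for Uqcrh, which was lower in fibroblasts grown alone in 4T1 CM. These promoters were chosen because they hold motifs of factors known to control nuclear respiratory genes. Each spans 250 bases before to 50 after the annotated start, from RefSeq on GRCm38.p6, and capitals mark the motifs. The intervals are chr8:83566508-83566807, plus strand for Ndufb7, chr10:80249199-80249498, plus strand for Ndufs7, chr4:140961021-140961320, plus strand for Sdhb and chr4:116075021-116075320, minus strand for Uqcrh.
Ndufb7: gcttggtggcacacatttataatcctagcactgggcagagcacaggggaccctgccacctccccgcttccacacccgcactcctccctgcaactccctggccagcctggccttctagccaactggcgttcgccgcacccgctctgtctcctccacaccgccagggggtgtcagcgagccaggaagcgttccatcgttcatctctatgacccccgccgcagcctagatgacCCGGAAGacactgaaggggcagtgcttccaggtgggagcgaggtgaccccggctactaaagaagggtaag
Ndufs7: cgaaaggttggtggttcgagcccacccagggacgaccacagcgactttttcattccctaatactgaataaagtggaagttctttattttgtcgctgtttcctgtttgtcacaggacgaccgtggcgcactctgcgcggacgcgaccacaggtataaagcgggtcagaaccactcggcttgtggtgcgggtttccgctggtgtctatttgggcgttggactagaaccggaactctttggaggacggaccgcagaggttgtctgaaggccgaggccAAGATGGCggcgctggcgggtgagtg
Sdhb: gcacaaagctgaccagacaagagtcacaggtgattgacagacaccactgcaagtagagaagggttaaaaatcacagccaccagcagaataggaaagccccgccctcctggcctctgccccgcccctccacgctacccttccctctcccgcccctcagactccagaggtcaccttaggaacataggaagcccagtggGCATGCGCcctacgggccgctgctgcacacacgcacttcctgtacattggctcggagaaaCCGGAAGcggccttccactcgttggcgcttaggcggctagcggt
Uqcrh: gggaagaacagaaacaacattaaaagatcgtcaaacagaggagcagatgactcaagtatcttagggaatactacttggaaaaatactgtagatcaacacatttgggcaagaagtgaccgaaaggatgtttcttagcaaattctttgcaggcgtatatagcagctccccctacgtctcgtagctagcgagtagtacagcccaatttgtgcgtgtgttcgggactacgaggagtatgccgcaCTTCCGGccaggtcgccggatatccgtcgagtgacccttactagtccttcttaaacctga
The motifs were GCGCATGC for NRF1, CCGGAAG for the ETS factor GABP and AAGATGGC for YY1, searched on both strands. Of 66 members with a promoter in the table, 10 (15.2%) held the NRF1 motif, against 3.05% of 27025 genes. The GABP motif was in 17 members (25.8%), against 9.93% of all genes, and the YY1 motif in 10 (15.2%), against 3.19%. Ndufb7 and Uqcrh held the GABP motif, Ndufs7 the YY1 motif, and Sdhb both the NRF1 and the GABP motif. Of the 15 members with a promoter that were lower in co-cultured macrophages in 4T1 CM, 8 held at least 1 motif, as did 23 of the other 51. A match describes these letters and does not show that a factor binds.

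As a whole the members took a narrow share of the reads. In fibroblasts they made up 2.11% ± 0.102 (SD, n = 3) in mono-culture in DMEM, 1.83% ± 0.0541 (n = 2) in mono-culture in 4T1 CM, 1.99% ± 0.0475 (n = 3) in co-culture in DMEM and 1.95% ± 0.0645 (n = 4) in co-culture in 4T1 CM. In macrophages they made up 2.38% ± 0.0849 (n = 3) at day 0, 2.09% ± 0.182 (n = 4) in mono-culture in 4T1 CM, 2.12% ± 0.208 (n = 3) in co-culture in DMEM and 2.02% ± 0.133 (n = 4) in co-culture in 4T1 CM. The day 0 libraries, at 2.29% to 2.45%, lay above every other macrophage library, and the fibroblast mono-cultures in 4T1 CM, at 1.8% and 1.87%, lay below every other fibroblast library. The ratio of the highest to the lowest group mean was taken for genes with at least 20 normalized reads in at least 2 libraries. Its median was 1.26 over 77 members and 1.4 over all 10046 such genes in fibroblasts, and 1.34 over 76 members and 1.5 over all 8882 in macrophages. Members and all genes were not matched for number of reads, which can affect this ratio. The medians therefore do not show whether members were steadier.

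**Figure D1:**
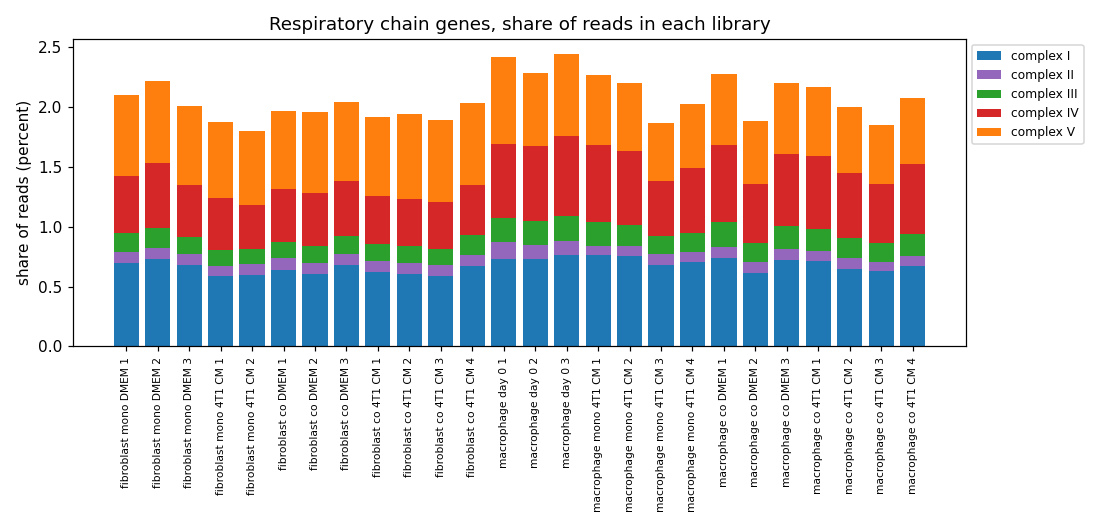
Share of reads (percent, vertical axis) taken by members of each complex in each of the 26 libraries, 1 bar per library. Totals run from 1.8% to 2.22% in fibroblasts and from 1.85% to 2.45% in macrophages, where the 3 day 0 libraries are highest.

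In macrophages in 4T1 CM, co-culture with fibroblasts was accompanied by lower RNA of complex I subunits. By edgeR's quasi-likelihood test, with a Benjamini-Hochberg adjusted p under 0.05 over 10088 genes, 16 of 76 members tested were lower and 2 were higher, 23.7% in all. Among all genes 26.0% were called, 11.9% lower, and 1415 of the 10088 genes were higher. The median log2 fold change was -0.21 for members and 0.03 for all genes. Of the members 57 had a negative value, and of all genes 51.9% had a positive value. Complex I held 11 of the 16 lower members and had a median of -0.30 over 33. Medians were -0.05 in complex II, -0.04 in complex III, -0.21 in complex IV and -0.08 in complex V. The same mono-cultures stood above day 0 in complex I, at a median of 0.18. Complex I medians were -0.05 for 4T1 CM against DMEM in co-culture and -0.10 for co-culture in DMEM against day 0. Complex I took 0.628% to 0.714% of reads in co-cultures in 4T1 CM and 0.682% to 0.76% in mono-cultures in 4T1 CM, which overlapped. Of the 14 macrophage markers 8 were called lower and 1 higher in the same comparison, with a median log2 fold change of -0.65. They summed to 44489 to 56683 CPM in co-cultures in 4T1 CM and to 65031 to 73283 in mono-cultures in 4T1 CM, and their part in the members' values was not tested.

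Ndufa4, a subunit of complex IV, had 33.7, 55.0, 63.7 and 42.7 normalized reads in the 4 co-cultures and 118, 126, 148 and 82.1 in the 4 mono-cultures. Every co-culture lay below every mono-culture. Its log2 fold change was -1.29 (SE 0.22, edgeR adjusted p = 0.000425).

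Ndufb7, an accessory subunit of complex I on the side of the intermembrane space, had 722, 676, 649.9 and 685 normalized reads in co-culture and 1372, 1229, 1059 and 1317 in mono-culture. The groups did not overlap, and the log2 fold change was -0.88 (SE 0.12, edgeR adjusted p = 6.5e-05). Ndufb2, another accessory subunit, had 219, 237, 198 and 288 in co-culture and 448, 428, 431 and 335 in mono-culture. These groups too were apart, with a log2 fold change of -0.81 (SE 0.13, edgeR adjusted p = 0.000353). Ndufb2 overlaps Braf on the other strand and Gm42420 on its own, so its reads may not all be its own.

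Ndufs8 and Ndufs7, 2 subunits of complex I that hold iron-sulphur clusters, were lower as well. Ndufs8 had 386, 343, 319 and 286 normalized reads in co-culture and 617, 628, 378 and 567 in mono-culture, where the low mono-culture, replicate 3, fell within the range of the co-cultures. Its log2 fold change was -0.73 (SE 0.17, edgeR adjusted p = 0.00391). Ndufs7 had 710.2, 637, 628 and 623 in co-culture and 1052, 927, 1107 and 826 in mono-culture, without overlap. Its log2 fold change was -0.61 (SE 0.12, edgeR adjusted p = 0.00118). The other 7 lower members of complex I, namely Ndufs3, Ndufa13, Ndufc2, Ndufa1, Ndufs6, Ndufb8 and Ndufb9, had log2 fold changes from -0.66 to -0.39. With 1 library left out in turn, in 8 fits, Ndufa1 and Ndufb9 lost their call in 6, Ndufs6 in 4 and Ndufb8 in 2, with edgeR adjusted p up to 0.127, 0.122, 0.0915 and 0.0564. The other 7 lower members of complex I were called in all 8 fits.

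Outside complex I, the lower members were Ndufa4, Cox5b, Sdhb, Uqcrc1 and Atp5g3. Of these, Uqcrc1 lost its call in 5 of the 8 fits that leave out 1 library (edgeR adjusted p up to 0.115) and Atp5g3 in 1 (up to 0.0573). Cox5b, a nuclear subunit of complex IV, had 849, 825, 645 and 764 normalized reads in co-culture and 1343, 1287, 1073 and 1111 in mono-culture, without overlap. Its log2 fold change was -0.66 (SE 0.13, edgeR adjusted p = 0.00148). Sdhb, the iron-sulphur subunit of complex II, had 802, 838, 671 and 706 in co-culture and 1137, 1163, 1144 and 849.9 in mono-culture, also apart, with a log2 fold change of -0.52 (SE 0.14, edgeR adjusted p = 0.00881). The other 3 subunits of complex II did not pass, at -0.16 for the flavoprotein Sdha and 0.05 and 0.20 for the membrane anchors Sdhc and Sdhd.

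The 2 higher members were of complex IV. Cox7a2l, which joins complexes III and IV into supercomplexes, had 718, 791, 604 and 766 normalized reads in co-culture and 612, 514, 416 and 361 in mono-culture. The lowest co-culture fell just under the highest mono-culture, and the log2 fold change was 0.58 (SE 0.16, edgeR adjusted p = 0.0116). Cox4i2, the isoform of subunit 4 used at low oxygen, had 24.4, 12.9, 73.3 and 10.7 in co-culture and 0, 3.53, 2.59 and 0 in mono-culture, a log2 fold change of 4.12 (SE 0.88, edgeR adjusted p = 0.00231). In co-culture replicate 3 the fibroblast markers stood at 23.5% of their level in co-cultured fibroblasts and Cox4i2 at 26.8%. In replicates 1, 2 and 4 the markers stood at 3.05%, 3.13% and 5.18% and Cox4i2 at 8.89%, 4.56% and 3.9%. Markers and Cox4i2 were thus both highest in replicate 3. In replicates 1, 2 and 4 Cox4i2 had 13, 15 and 12 raw reads, too few to rank these libraries. Without replicate 3 the log2 fold change of Cox4i2 was 3.2. Ndufa4l2, a relative of Ndufa4 outside the member list, was likewise highest in replicate 3, at 346 normalized reads against 47.2 to 52.5 in the other 3. Relative to co-cultured fibroblasts it stood at 20.1% in replicate 3 and at 3.06%, 2.67% and 2.95% in replicates 1, 2 and 4. The part of fibroblast RNA in these rises was not tested.

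**Figure D2:**
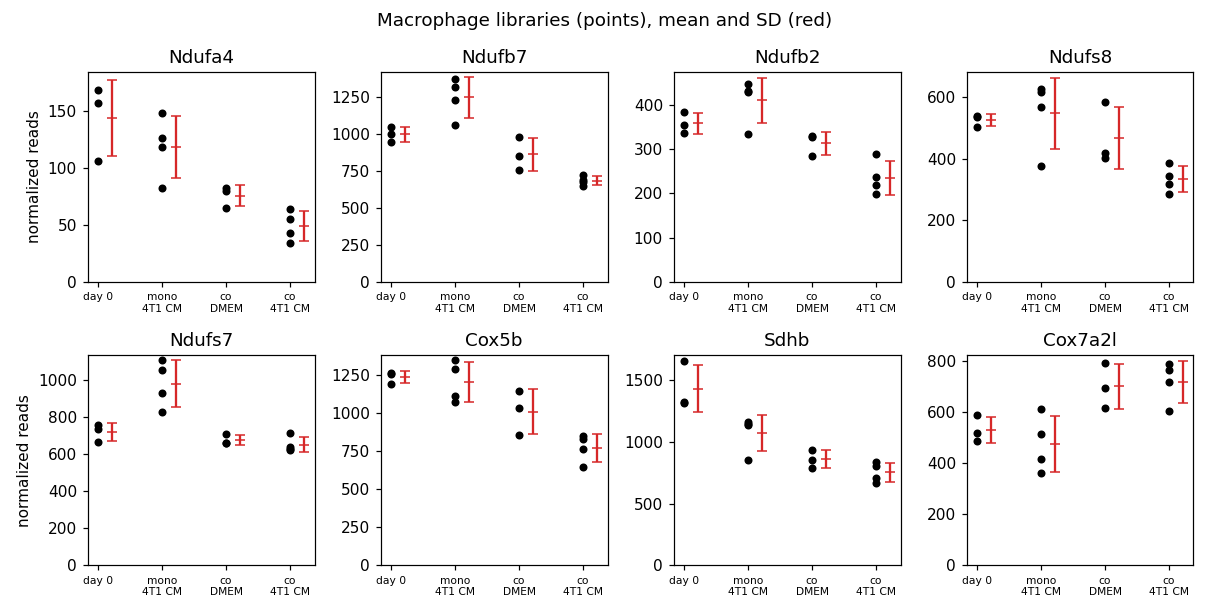
Normalized reads (vertical axis, from 0) of 8 members in each macrophage library by group, with the mean and SD beside the points. Ndufa4, Ndufb7, Ndufb2, Ndufs7, Cox5b and Sdhb have all 4 co-cultures in 4T1 CM below all 4 mono-cultures in 4T1 CM.

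**Figure D3:**
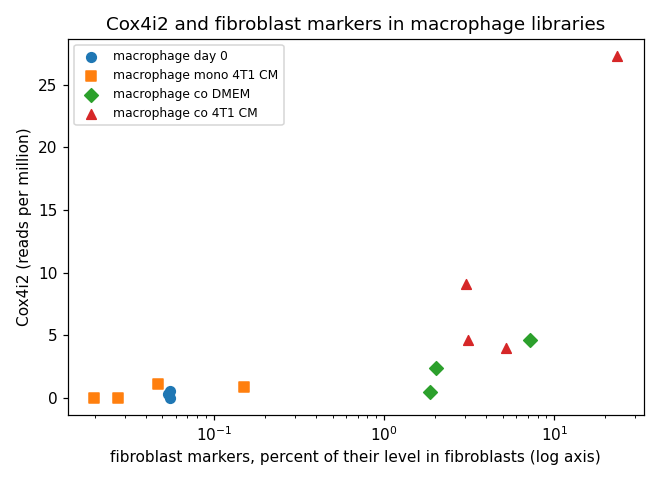
Cox4i2 (CPM, vertical axis) against the summed fibroblast markers (percent of their level in fibroblasts, log axis) in each macrophage library, with symbols by group. The library with the markers at 23.5% has the highest Cox4i2, 27.3 CPM.

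Between the media, no member of co-cultured macrophages passed. For 4T1 CM against DMEM, edgeR called 0 of 76 members and 10.3% of all genes. At an unadjusted edgeR p under 0.05 there were 10 members, and DESeq2 called 1. The labels do not say whether replicate numbers pair these samples, and with the replicate as a block 1 member was called. For the unadjusted, DESeq2 and block counts the share of all genes was not taken. The median log2 fold change was -0.09 for members and 0.02 for all genes. Ndufa4 had 79.3, 64.7 and 81.8 normalized reads in co-culture in DMEM, above each value in 4T1 CM, with a log2 fold change of -0.61 (SE 0.24, edgeR adjusted p = 0.122).

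Against day 0, few members passed. If the sample titles are right, co-cultures in DMEM differ from day 0 in time in culture as well as in the partner cell. Medium and sorting may differ too. These cannot be told apart here. In co-culture in DMEM edgeR called 1 member higher and 2 lower of 76, where it called 15.2% of all genes, 8.47% higher and 6.71% lower. Sdhb had 857, 786 and 933 normalized reads in co-culture in DMEM and 1657, 1321 and 1324 at day 0, with no overlap and a log2 fold change of -0.72 (SE 0.16, edgeR adjusted p = 0.00451). Ndufa4 had 168, 156 and 106 at day 0, all above the co-cultures, with a log2 fold change of -0.91 (SE 0.23, edgeR adjusted p = 0.0139). It lost its call in 2 of the 6 fits that leave out 1 library (adjusted p up to 0.0636). Ndufv3, a small subunit of the NADH-binding module of complex I, had 1751, 1317 and 1908 in co-culture in DMEM and 939.8, 1022 and 1097 at day 0. Its groups were apart, with a log2 fold change of 0.72 (SE 0.17, edgeR adjusted p = 0.00779).

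In mono-culture in 4T1 CM against day 0, edgeR called 4 members higher and 1 lower, where it called 21.9% of all genes, 11.1% higher and 10.9% lower. If the sample titles are right, time in culture and medium cannot be told apart in this comparison. The 4 higher members were all of complex I. Ndufs7 had 756, 661 and 732 normalized reads at day 0, below each mono-culture in 4T1 CM, with a log2 fold change of 0.48 (SE 0.13, edgeR adjusted p = 0.0107). Ndufv3 rose by 0.57 (SE 0.16, edgeR adjusted p = 0.0144), Ndufc2 by 0.47 (adjusted p = 0.0269) and Ndufa6 by 0.48 (adjusted p = 0.0439) on the log2 scale. The day 0 libraries are the same as those set against co-culture in DMEM, so the rises of Ndufv3 in both comparisons are not independent. Atp5g2, which encodes the c subunit of the ATP synthase ring, had 13.4, 8.23, 11.2 and 3.73 in mono-culture in 4T1 CM and 12.1, 22.5 and 31.0 at day 0. These groups overlapped, and the log2 fold change was -1.17 (SE 0.39, edgeR adjusted p = 0.0392). The number called was 8 without mono-culture replicate 3, 2 without day 0 replicate 1 or 2, and 3 without day 0 replicate 3 or mono-culture replicate 2 or 4. In those 7 fits Ndufa6 lost its call in 6, Ndufc2 and Atp5g2 in 4, Ndufv3 in 3 and Ndufs7 in 1, with edgeR adjusted p up to 0.144, 0.138, 0.227, 0.0660 and 0.0556. With median-of-ratios factors in place of TMM factors, 3 members were higher and 3 lower. For these alternative fits the share of all genes was not taken. Relative to the other libraries of its group, members with the shortest transcripts were low in some of these libraries and high in others. In mono-culture replicate 3 the 25 members with the shortest transcripts had a median log2 difference of -0.24 and the 25 with the longest of -0.11. These medians were -0.29 and -0.17 in replicate 4, 0.35 and 0.25 in replicate 1, and 0.20 and 0.13 in replicate 2. In co-culture in DMEM they were 0.33 and 0.11, -0.47 and -0.15, and 0.17 and -0.05 in replicates 1, 2 and 3. The part of this in the calls was not tested. For mono-culture in 4T1 CM against day 0, complex I had a median log2 fold change of 0.18 and complex II of -0.27.

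In fibroblasts, co-culture with macrophages was not accompanied by a called change in any member. In DMEM, limma on log2 of the normalized value plus 1 called 0 of 79 members and 1.00% of 12401 genes. At an unadjusted limma p under 0.05 there were 8 members, and edgeR called 0 and DESeq2 2. For the unadjusted and alternative counts the share of all genes was not taken. The median log2 fold change was -0.10 for members and 0 for all genes. Of the members 61 of 79 had a negative value, and of all genes 49.6% had a positive value. In mono-culture in DMEM, 27 of 77 members lay below the group in replicate 2 and 51 in replicate 3. Members thus did not vary independently. Ndufa4 had 75.2, 119 and 96.5 normalized reads in co-culture and 249, 219 and 166 in mono-culture, without overlap, at a log2 fold change of -1.12 (SE 0.30, limma adjusted p = 0.111). The 14 macrophage markers summed to 694 to 1533 CPM in these co-cultures and to 43.6 to 53.3 in the mono-cultures, 11 of them called higher by limma, and their part in the members' values was not tested. In 4T1 CM, limma called 0 of 79 members and 0.0242% of all genes. At an unadjusted limma p under 0.05 there were 7 members, and edgeR and DESeq2 called 0. Here too the share of all genes was not taken for the unadjusted and alternative counts. Without mono-culture replicate 2, 1 member was called. The macrophage markers summed to 56.3 to 303 CPM in co-culture and to 162 to 166 in mono-culture in 4T1 CM.

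In fibroblasts grown alone, 4 members differed between the media. For 4T1 CM against DMEM in mono-culture, limma called 1 member higher and 3 lower of 79, where it called 13.3% of all genes, 6.36% higher and 6.93% lower. The median log2 fold change was -0.21 for members and -0.01 for all genes. Of the members 61 of 79 had a negative value, and of all genes 49.2% had a positive value. All 11 skeletal muscle markers tested were lower in the same comparison, and their part in the members' values was not tested.

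Cox4i2 had 391 and 656 normalized reads in mono-culture in 4T1 CM and 56.8, 87.3 and 100.1 in mono-culture in DMEM. The groups were apart, with a log2 fold change of 2.66 (SE 0.48, limma adjusted p = 0.0031). In co-culture it had 161, 143 and 409 in DMEM and 579, 463, 185 and 394 in 4T1 CM, which overlapped. Per 100 reads of Cox4i1, the widely used isoform, Cox4i2 had 2.36 ± 0.881 (SD, n = 3) in mono-culture in DMEM and 18 ± 9.57 (n = 2) in mono-culture in 4T1 CM.

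Uqcrh, the hinge protein of complex III, had 890.3 and 814 normalized reads in mono-culture in 4T1 CM and 1672, 1519 and 1570 in DMEM. These did not overlap, at a log2 fold change of -0.90 (SE 0.17, limma adjusted p = 0.00505). Pseudogenes named after Uqcrh could share its reads. Ndufa13, an accessory subunit of complex I, had 1147 and 1363 in 4T1 CM and 1853, 2433 and 1717 in DMEM, a log2 fold change of -0.66 (SE 0.17, limma adjusted p = 0.0222). Ndufb2 had 501 and 495 in 4T1 CM and 825, 615 and 881 in DMEM, a log2 fold change of -0.62 (SE 0.18, limma adjusted p = 0.0394). With 1 library left out in turn, Uqcrh and Cox4i2 were called in all 5 fits, Ndufa13 lost its call in 2 and Ndufb2 in 4. In 2 of these fits 1 library in 4T1 CM was left, which is then assumed to vary like the other groups. Ndufa13 overlaps Yjefn3 on its own strand and Tssk6 on the other.

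In co-cultured fibroblasts, limma called 0 of 79 members for 4T1 CM against DMEM and 5.85% of all genes. At an unadjusted limma p under 0.05 there were 5 members, and edgeR and DESeq2 called 0. For the interaction of co-culture and medium limma called 0 of 79 members and 0.145% of all genes. At an unadjusted limma p under 0.05 there were 7 members, and edgeR called 0 and DESeq2 1. For the unadjusted and alternative counts the share of all genes was not taken. The 4 subunits of complex II had log2 fold changes between -0.09 and 0.05 for 4T1 CM against DMEM in mono-culture and between -0.11 and 0.26 in co-culture.

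**Figure D4:**
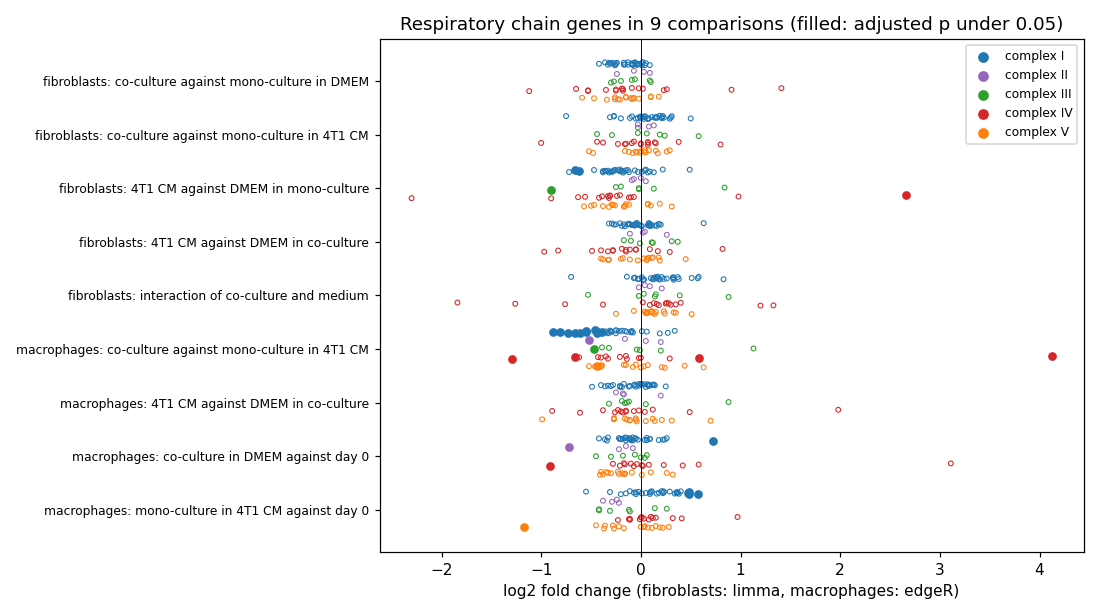
Log2 fold change (horizontal axis) of each member in the 9 comparisons, coloured by complex, with filled points at an adjusted p under 0.05. Filled points are most frequent for co-cultured macrophages set against those grown alone in 4T1 CM, with 16 lower and 2 higher.

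The isoforms of complex IV known from muscle were rare beside their widely used counterparts in most groups. Cox6a2 had 2.03 to 3.26 reads per 100 of Cox6a1 as group means in fibroblasts and 0.0423 to 0.281 in macrophages. Cox7a1 had 5.04 to 11.5 per 100 of Cox7a2 in fibroblasts and 11.4 to 14 in macrophages. Cox8b, listed for fibroblasts only, was at 0 in both mono-cultures in 4T1 CM. It was highest, at 12.2 normalized reads, in mono-culture replicate 2 in DMEM, the library with the most skeletal muscle marker RNA. That fibroblast library also had the fewest reads, 1945980, and all Cox8b values rest on few reads. Of the c subunit genes, Atp5g3 had the most reads in every group, with Atp5g1 at 8.14 to 9.58 per 100 of its reads in fibroblasts and 8.72 to 10.2 in macrophages.

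Other mitochondrial genes were compared in the same fits. In macrophages in 4T1 CM, co-culture against mono-culture, edgeR called 2 of 12 genes of the TCA cycle lower, Fh1 (fumarase) at a log2 fold change of -1.26 (SE 0.16, adjusted p = 3.12e-05) and Idh3g (a subunit of isocitrate dehydrogenase) at -0.63 (SE 0.13, adjusted p = 0.00155). Of 36 assembly factors 1 was lower and 0 higher, and of 70 mitochondrial ribosome genes 4 were lower and 1 higher. Among all genes 11.9% were called lower there, and 1415 of the 10088 were higher. Of 7 carriers and channels 2 were higher and 0 lower, with a median of 0.07. Vdac1 (an outer membrane channel) was at 0.76 (SE 0.14, edgeR adjusted p = 0.000916) and Slc25a4 (an ADP/ATP carrier) at 0.49 (SE 0.12, edgeR adjusted p = 0.00742). Their relatives in the list were not called. Slc25a5 had 768 to 891 normalized reads in co-culture, below the 927 to 1217 in mono-culture. Group means were 748 and 683 for Vdac2 and 122 and 116 for Vdac3. Vdac1 and Slc25a4 were lower in mono-culture in 4T1 CM against day 0, a comparison that shares the mono-cultures, at -0.69 and -0.50. In fibroblasts in 4T1 CM against DMEM in mono-culture, limma called 4 of 72 mitochondrial ribosome genes lower and 0 higher. Among all genes it called 6.93% lower and 6.36% higher.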

How the data were processed

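The authors deposited macrophage counts as raw reads per gene. For each cell type the authors also deposited gene-level normalized signal. Tools listed in the submitters' processing notes are STAR 2.4.2a, HTSeq and bcl2fastq, and the build is mm10. Divided by 1 factor per library, 100% of the fibroblast signal values gave whole reads within 0.001 reads. Fibroblasts were tested with limma 3.58.1 (trend) on log2 of the deposited signal plus 1, keeping the 12401 genes that reached 5 in 2 or more libraries (12 libraries in 1 fit), and macrophages with edgeR 4.0.16 on the deposited counts (TMM, filterByExpr, 10088 genes, 14 libraries in 1 fit), in R 4.3.3. The SE printed with edgeR is the absolute log2 fold change divided by the square root of the test's F statistic. DESeq2 1.42.0 was an alternative. Values printed per library are the authors' normalized reads. The members and gene lists were chosen with earlier results of these data known. Named members are those called, up to 5 each way per comparison, complex II and isoform pairs. In co-cultured macrophages in 4T1 CM and DMEM, deviations of same-numbered libraries from their group means had r = 0.246, 0.189 and 0.470. Replicate 3, at 0.470, also held the most fibroblast marker RNA in both groups. The labels do not say whether same-numbered libraries are paired, so the replicate block was an alternative only. Where labels do not name separate animals, p-values reflect sample-to-sample spread that may be technical. The fits were also run on simulated counts for some of the comparisons, with changes larger than those of most called members. That run does not show how well changes of the reported size are found. Gene positions are from GENCODE vM21 on mm10. Genes encoded by mitochondrial DNA are not analysed here.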

Additional observations from a re-analysis of the deposited data

Results flagged for a closer look

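In groups of 4 libraries, 4 of 100 sets of values of named members had 1 library far from the other 3, which chance gives in about 1 in 20. Ndufb9 was 1551 normalized reads in fibroblast co-culture in 4T1 CM replicate 4, against 1269 to 1317 in the others. In macrophage co-culture in 4T1 CM replicate 1, Cox4i1 was 3952 against 3222 to 3326 and Ndufs7 was 710.2 against 623 to 637. Sdhb was 849.9 in macrophage mono-culture in 4T1 CM replicate 4, against 1137 to 1163. In fibroblasts, every co-culture lay below every mono-culture for Uqcrh in DMEM (log2 fold change -0.30) and above in 4T1 CM (0.58), where the interaction had a limma adjusted p of 0.13. In 4T1 CM, co-cultures lay above mono-cultures in fibroblasts and below in macrophages for Atp5g3 (0.26 and -0.44) and Ndufa13 (0.31 and -0.55), and the difference between cell types was not tested.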

How the results depend on the processing

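Of the alternatives for the counts of called members, other pseudocounts, filters and scaling factors left each total number called within 1.5 times, though with median-of-ratios factors the split for macrophages alone in 4T1 CM against day 0 went from 4 higher and 1 lower to 3 and 3, and no named member changed direction. With DESeq2, 2 members were called for fibroblast co-culture in DMEM, 8 for 4T1 CM in fibroblast mono-culture, 1 for the interaction, 1 for 4T1 CM in macrophage co-culture, 5 for macrophage co-culture in DMEM against day 0 and 10 for macrophages alone in 4T1 CM against day 0. With the replicate block, 2 were called for 4T1 CM in fibroblast mono-culture, 1 for 4T1 CM in macrophage co-culture and 3 for macrophages alone in 4T1 CM against day 0, and the other counts stayed within 1.5 times. Leaving out each library in turn gave 0 to 1 members for fibroblast co-culture in 4T1 CM, 3 to 6 for 4T1 CM in fibroblast mono-culture, 13 to 23 for macrophage co-culture in 4T1 CM, 0 to 1 for 4T1 CM in macrophage co-culture, 2 to 4 for macrophage co-culture in DMEM against day 0 and 2 to 8 for macrophages alone in 4T1 CM against day 0. Chosen after seeing the data, leaving out co-culture replicates 2 and 3 in DMEM gave 0 against day 0 (1 library left, assumed to vary like the other groups), leaving out mono-culture replicates 3 and 4 in 4T1 CM gave 8 against day 0, and leaving out replicate 3 of both groups gave 18 calls for macrophage co-culture in 4T1 CM. Without the member with most reads, the members' share was 1.78%, 1.84%, 1.70% and 1.98% in fibroblasts co-cultured in 4T1 CM, co-cultured in DMEM, alone in 4T1 CM and alone in DMEM, and 2.25% in day 0 macrophages. The cause was not tested. The share without genes encoded by mitochondrial DNA was not run, since none is used here. For the alternatives, and at an unadjusted p under 0.05, the share of all genes called was not taken. Those member counts therefore have no background beside them.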
